A study of Homo sapiens with 4 samples.

Results

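The 102 annotated microRNA (miRNA) loci described here are the rows that the authors' table types as miRNA and whose counts, summed over all 4 libraries, reach at least 10. They are 102 of 926 rows of that type (11.0%), and 711 of the 926 had a count above 0. The loci were chosen by these summed counts, so their abundance is a description and not a finding. The EPN24-Cas13d libraries held more gene counts than the EPN24 libraries, so a locus could reach 10 more easily through the former. Around the limit, 17 loci had from 10 to under 12 summed counts and 32 further rows had from 8 to under 10, with 9.5 as the highest value left out. In 10 of those 17 and in 8 of those 32 the mean count scaled to library size (CPM) was larger in the EPN24-Cas13d libraries.

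The cells were HEK293T, a line derived from human embryonic kidney, which shed protein shells (nanocages) made of EPN24 into the medium. In 1 group the shell protein carried Cas13d, a CRISPR nuclease of the kind that targets RNA (EPN24-Cas13d, 2 libraries). In the other group EPN24 was used alone (2 libraries). All 4 libraries received ERCC spike-in RNA in 200 µl of cleared and filtered supernatant and were read as 150-nt pairs after 17 PCR cycles. The design text gives the purpose as finding the RNAs that Cas13d binds in cells, through their encapsulation in the shells. The labels name no guide RNA, no way of delivering the constructs and no time of collection, and do not say whether separate cultures gave the libraries of a group, and the p-values reflect the spread among these libraries alone. The supernatant's total RNA was read, so encapsulated and free RNA cannot be told apart, nor more shells from more RNA per shell.

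A miRNA gene is transcribed as a longer primary transcript from which the nuclear enzyme DROSHA, with DGCR8, cuts a short hairpin. XPO5 exports the hairpin, DICER1 trims it, and an Argonaute protein takes up the mature strand, whose seed (bases 2 to 8) pairs with target messages. Many miRNA hairpins lie inside protein-coding genes. Some of them, called mirtrons, are short introns whose ends are made by splicing and not by DROSHA. The libraries here were made from fragmented total RNA, so a count at a hairpin locus can come from any RNA that crosses it, the host's mRNA or unspliced transcript included. Mature miRNAs were not measured.

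Hairpins that touch a splice site show how the members sit in their hosts. They are given 5′ to 3′ from RefSeq on GRCh38.p14, and capitals mark bases that belong to an exon of the host in the deposited table. MIR3940 (chr19:6416410-6416511, minus strand) starts in an exon of KHSRP, MIR3605 (chr1:33332393-33332492, minus strand) ends in an exon of PHC2, and MIR6852 (chr9:35710676-35710741, minus strand) ends in an exon of TLN1. All 3 overlap a coding exon in GENCODE v29.
MIR3940 hairpin: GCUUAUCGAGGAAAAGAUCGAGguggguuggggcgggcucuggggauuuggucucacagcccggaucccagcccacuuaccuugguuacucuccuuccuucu
MIR3605 hairpin: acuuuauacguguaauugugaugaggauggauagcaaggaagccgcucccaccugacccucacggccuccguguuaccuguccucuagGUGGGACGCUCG
MIR6852 hairpin: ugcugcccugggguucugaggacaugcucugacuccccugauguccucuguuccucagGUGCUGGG

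The hairpins of MIR6807 (chr19:58550285-58550376, plus strand) and MIR6821 (chr22:49962866-49962939, plus strand) are each a whole intron, of TRIM28 and PIM3. Here capitals mark the GU and AG at the intron's ends.
MIR6807 hairpin: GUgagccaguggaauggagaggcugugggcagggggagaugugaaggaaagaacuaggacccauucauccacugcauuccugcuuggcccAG
MIR6821 hairpin: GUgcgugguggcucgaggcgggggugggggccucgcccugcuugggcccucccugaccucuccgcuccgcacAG

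A mature arm began at the first base of a host intron or ended at its last base in 20 of the 72 members with a RefSeq sequence and a host on the same strand (27.8%), and in 93 of 387 other miRNA rows (24.0%). The arm ended at the intron's last base in 18 of the 20, began at its first base in 4, and did both in 2, MIR6807 and MIR6789. Contact with a splice site was therefore nearly as frequent among miRNA rows below 10 summed counts.

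The mature sequences of the loci with the most counts, or the largest differences, are given next with their seeds in capitals. Those of loci with more counts relative to library size in EPN24-Cas13d come first.
hsa-miR-3940-5p: gUGGGUUGgggcgggcucug
hsa-miR-3940-3p: cAGCCCGGaucccagcccacuu
hsa-miR-3605-3p: cCUCCGUGuuaccuguccucuag
hsa-miR-4721: uGAGGGCUccaggugacggugg
hsa-miR-1909-3p: cGCAGGGGccgggugcucaccg
hsa-miR-1181: cCGUCGCCgccacccgagccg
hsa-miR-6126: gUGAAGGCccggcggaga
hsa-miR-1292-5p: uGGGAACGgguuccggcagacgcug
hsa-miR-5090: cCGGGGCAgauugguguagggug
hsa-miR-4700-5p: uCUGGGGAugaggacagugugu
hsa-miR-4658: gUGAGUGUggauccuggaggaau
hsa-miR-6852-3p: uGUCCUCUguuccucag

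Those of loci with more counts relative to library size in EPN24 follow.
hsa-miR-1282: uCGUUUGCcuuuuucugcuu
hsa-miR-4444: cUCGAGUUggaagaggcg
hsa-miR-1244: aAGUAGUUgguuuguaugagaugguu
hsa-miR-3655: gCUUGUCGcugcgguguugcu
hsa-miR-3194-5p: gGCCAGCCaccaggagggcug

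RefSeq held the hairpin of 87 of the 102 loci at the same coordinates (85.3%). Their 122 distinct mature sequences had 122 distinct seeds, so no seed family was represented by more than 1 mature sequence, and 27 of the 122 shared a seed with some other RefSeq mature sequence. Median GC content of the seeds was 57.1% in the members and 57.1% in the other 2248 RefSeq mature sequences. Hairpins were richer in GC, with a median of 62.2% in 87 members (quartiles 55.8% and 70.8%) and 53.3% in 681 other miRNA rows (quartiles 45.0% and 63.2%). Within host exons the medians were 60.0% for 57 members and 61.6% for 69 other rows, and within host introns 64.2% for 14 and 54.3% for 319.

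Gene counts per library were 5097332 and 4863449 for EPN24-Cas13d, and 1830860 and 1903492 for EPN24. ERCC counts were 89588 and 82049 against 445118 and 502789. The HEK293T markers PAX2, LHX1, NEFL, NEFM, INA and GATA3 were all measured, at a summed 209 and 185 CPM (counts scaled to library size) in EPN24-Cas13d against 173 and 168 in EPN24. The 11 markers of red cells, leukocytes, hepatocytes and fibroblasts summed to 22.3 and 30.2 CPM in EPN24-Cas13d against 76.1 and 71.6 in EPN24. Of the 6 HEK293T markers 2 were higher in EPN24-Cas13d, 1 was lower and 3 were not called. In the list of other cells HBA1 was at 0 in all 4 libraries, and 5 of the 6 tested markers were lower in EPN24-Cas13d. Across all tested genes 32.6% were higher and 48.2% lower. Of those 5 markers, 4 passed the filter on low counts, described below, only through EPN24 and had to differ. The part of these markers in the differences below was not tested.

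The loci were small targets with few reads. They spanned 53 to 137 nt with a median of 81 nt, and the median locus had 22 summed counts. The 4 libraries held 2107.1 and 2095.7 counts at the 102 loci in EPN24-Cas13d against 254.4 and 287.3 in EPN24. A count above 0 was present at 95 and 94 loci in EPN24-Cas13d and at 68 and 70 in EPN24. MIR3940 alone held 16.2% of these counts, and the 10 loci with the most counts held 45.4%. By chromosome, 13 loci lay on chromosome 19, 10 on chromosome 1, 9 on chromosome 17, and 8 each on chromosomes 16 and 22.

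The 102 loci and the other miRNA rows differed in their position relative to protein-coding genes. A host here is a protein-coding gene whose span holds the whole locus, and where several do, the gene with the most counts. Of the 102 loci, 65 overlapped an exon of the host on the same strand (63.7%), 17 lay in a host intron on the same strand (16.7%), 11 lay on the strand opposite the host (10.8%), and 9 lay outside any protein-coding gene (8.82%). Of the 824 other miRNA rows, 85 were exonic (10.3%), 381 intronic (46.2%), 96 opposite (11.7%) and 262 outside (31.8%). In other terms, 43.3% of the 150 exonic miRNA rows reached 10 summed counts, against 4.27% of 398 intronic, 10.3% of 107 opposite and 3.32% of 271 outside rows. The exonic loci held 82.3% of all counts at the 102 loci. Since summed counts chose the loci, these shares describe what the rule picked and carry no test.

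**Figure D1:**
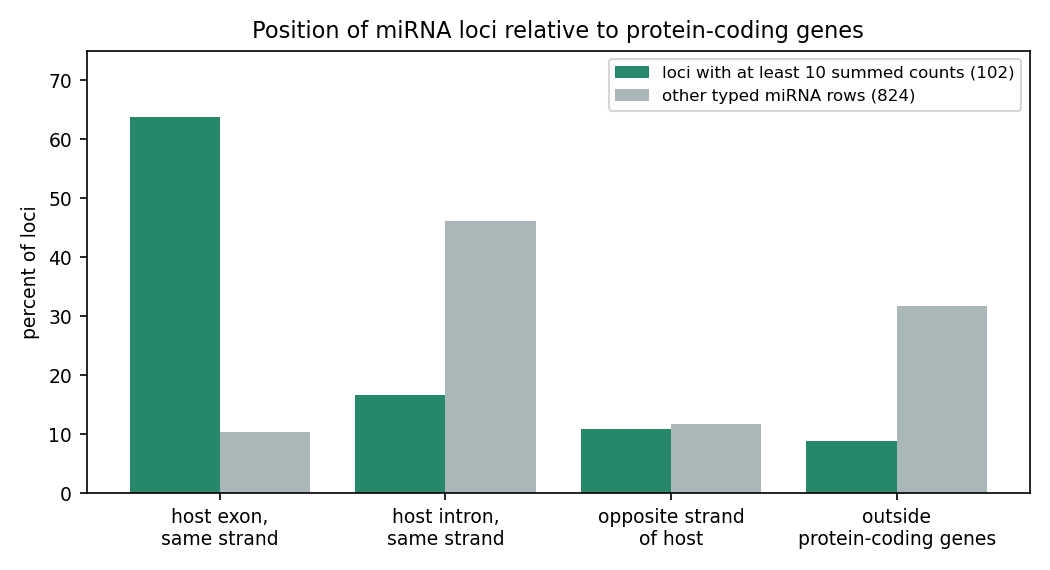
Percent of loci in each position relative to protein-coding genes, for the 102 loci with at least 10 summed counts (green) and the other 824 miRNA rows (grey). Exonic loci make up 63.7% of the first set and 10.3% of the second, and intronic loci 16.7% and 46.2%.

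Hosts of the members were also more abundant than hosts of the other rows. The median host held 1347 summed counts for exonic members and 502 for other exonic rows, and 3509 against 464 for intronic rows. By GENCODE v29, 44 of the 65 exonic members touched a coding exon, 9 a 3′ UTR and no coding exon, and 6 a 5′ UTR and no coding exon. Another 4 (MIR6727, MIR6850, MIR3064 and MIR6808) lay only in exons of non-coding transcripts of the host, and 2 (MIR4787 and MIR621) were intronic in that release. The whole locus lay in exon sequence in 45 of the 65 and a part of it in 20. Exons of all transcripts of a host were joined here, so an exonic locus can lie in an intron of another transcript. Such a locus is MIR6789, wholly in exon sequence of PLEKHJ1, whose arms also began and ended at the ends of an intron. Of the 17 intronic members 6 began or ended at an exon boundary (MIR6807, MIR6893, MIR6728, MIR7111, MIR6776 and MIR6821).

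Of the 102 loci, 36 passed the filter on low counts, and 66 loci with 10 to 50.5 summed counts did not. The filter asked for a CPM of at least 2.96 in 2 libraries. Its CPM are relative to total gene counts, without the TMM scaling of the CPM printed here. Among the 36, 27 passed only through EPN24-Cas13d, 6 only through EPN24 and 3 through both, so 33 entered the test through the group in which they were high and had to differ. By edgeR's quasi-likelihood test, adjusted by Benjamini-Hochberg over 20476 genes, 29 of the 36 were higher in EPN24-Cas13d and 6 lower, and MIR4315-1 was not called. Across all tested genes 32.6% were higher and 48.2% lower (80.9% either way). These counts scale the libraries by TMM. With scaling to the ERCC totals, which compares RNA per volume of supernatant and shifts the median over all tested genes by 3.34 on the log2 scale, 30 of the 36 were higher, MIR4315-1 among them, and 0 lower, where 58.4% of all tested genes were higher and 2.33% lower (60.7% either way).

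The log2 fold change of the 36 loci had a median of 3.36, or 3.06 with the 6 loci that had a group at 0 after rounding put at their bound, and that of all tested genes was -0.96. With ERCC scaling the medians were 6.63 and 2.38. The filter fixes much of the median of the 36, as above. Without regard to the filter, CPM of the groups did not overlap at 89 of the 102 loci. It was higher in EPN24-Cas13d at 77 loci and higher in EPN24 at 12, and overlapped at 13. Among the 28395 genes with at least 10 summed counts, 28.3% had no overlap with EPN24-Cas13d higher and 57.2% with EPN24 higher. Thus the share of loci on the EPN24-Cas13d side exceeded that of all genes held to the same count minimum. The loci had few counts and were chosen by sums reached more easily through EPN24-Cas13d, so this comparison carries no test. The miRNA rows under 10 summed counts took 0.00561% of gene counts in EPN24-Cas13d against 0.0371% in EPN24. In the authors' deposited table, 78 of 101 loci with an adjusted p were higher and 0 lower, and 30.6% and 0.201% of all 39720 genes with one.

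**Figure D2:**
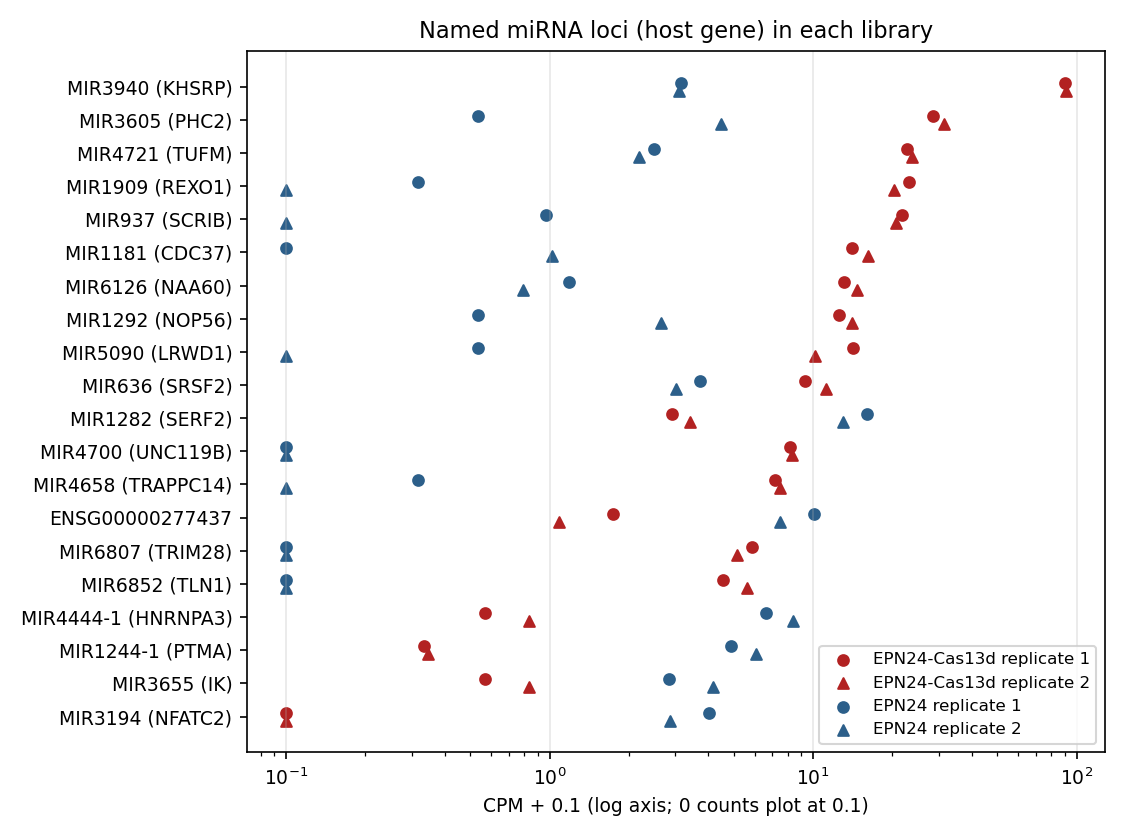
CPM + 0.1 on a log axis in each library for 20 named miRNA loci, with the host gene in brackets; red marks EPN24-Cas13d, blue EPN24, circles replicate 1 and triangles replicate 2, and loci with 0 counts lie at 0.1. MIR3940 reaches 90.5 and 90.9 CPM in EPN24-Cas13d, and the 6 loci called lower have their blue points to the right of the red.

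MIR3940 had the most counts. Its host KHSRP encodes an RNA-binding protein known to promote the maturation of some miRNAs, and the first 22 of the 102 nt of the locus are exonic. The locus had 90.5 and 90.9 CPM in EPN24-Cas13d (386 and 370 counts) and 3.05 and 3.0 CPM in EPN24 (7 and 6.5 counts). The log2 fold change was 4.94 (approximate SE 0.29, adjusted p = 1.22e-09 by edgeR's quasi-likelihood test, Benjamini-Hochberg adjustment), and with ERCC scaling 8.28. KHSRP itself had 2478 and 2407 CPM against 107 and 107, a log2 fold change of 4.51 (approximate SE 0.11). The locus held 3.65% and 3.77% as many counts as its host in EPN24-Cas13d against 2.86% and 2.80% in EPN24.

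MIR3605, which ends in an exon of the Polycomb gene PHC2, had 28.4 and 31.2 CPM in EPN24-Cas13d against 0.435 and 4.39 CPM in EPN24. The groups did not overlap, but the EPN24 libraries held 1 and 9.5 counts, and the log2 fold change of 3.57 (adjusted p = 2.61e-05, edgeR's quasi-likelihood test, Benjamini-Hochberg adjustment) became 5.99 without EPN24 replicate 2. PHC2 differed by 4.66. MIR4721 spans coding and 3′ UTR sequence of TUFM (chr16:28843919-28844007, minus strand), the mitochondrial elongation factor. Its CPM was 22.6 and 23.7 against 2.39 and 2.08, a log2 fold change of 3.34 beside 3.46 for the host. All 4 of its libraries held reads and the replicates lay close together in both groups.

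MIR1909, wholly in exon sequence of REXO1, which encodes an RNA exonuclease homologue (chr19:1816159-1816238, minus strand), had 98.5 and 82 counts in EPN24-Cas13d against 0.5 and 0 in EPN24. Against a floor of 3 counts per library it was at least 16.1-fold higher (adjusted p = 1.42e-06, edgeR's quasi-likelihood test, Benjamini-Hochberg adjustment), and REXO1 differed by a log2 fold change of 5.33. MIR937 in SCRIB, a cell polarity gene on chromosome 8, had 92 and 83.5 counts against 2 and 0. The CPM ratio was 47.1, with an exact 95% interval of 12.9 to 392, and its log2 fold change of 5.44 became 9.21 without EPN24 replicate 1. MIR1181 in coding and 5′ UTR sequence of CDC37 (chr19:10403458-10403538, minus strand), a co-chaperone of HSP90, had 59.5 and 65 counts against 0 and 2, a ratio of 33.5 (9.07 to 279). Its log2 fold change of 4.95 became 8.74 without EPN24 replicate 2. Counting error is all that these intervals and the floors cover: no molecular identifiers mark PCR copies, and both mates of a pair may be counted.

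MIR6126 (chr16:3485381-3485469, minus strand) lies opposite the 3′ UTR of NAA60, an N-terminal acetyltransferase gene. It had 13.0 and 14.6 CPM in EPN24-Cas13d against 1.09 and 0.693 in EPN24, a log2 fold change of 3.90 beside 4.18 for NAA60. The strand setting of the counting is not given in the sources used here, so reads of the locus and of the opposite host cannot be told apart. MIR1292 (chr20:2652777-2652842, plus strand) is exonic in NOP56, a core protein of box C/D small nucleolar ribonucleoproteins. It had 53 and 56.5 counts against 1 and 5.5, and its log2 fold change of 3.02 (4.81 without EPN24 replicate 2) compares with 2.30 for the host. MIR5090 (chr7:102465742-102465826, plus strand), exonic in LRWD1, had 60 and 41 counts against 1 and 0, a ratio of 54.1 (9.49 to 2160). Its log2 fold change of 5.53 became 8.41 without EPN24 replicate 1, so its size was poorly fixed.

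MIR636 (chr17:76736450-76736548, minus strand) is exonic in the splicing factor gene SRSF2 and had the smallest difference of the 10 loci with the most counts that were higher. It had 9.22 and 11.1 CPM against 3.62 and 2.92, a log2 fold change of 1.68 (approximate SE 0.53, adjusted p = 0.00925, edgeR's quasi-likelihood test, Benjamini-Hochberg adjustment), beside 1.43 for SRSF2. The call was lost with scaling to total counts (adjusted p = 0.0632), without EPN24-Cas13d replicate 2 (0.0623) and with the DESeq2 Wald test (0.0673), each after Benjamini-Hochberg adjustment. Besides SRSF2, 2 other protein-coding genes span this locus.

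Another 4 loci were at or near 0 in EPN24. MIR4700 in the 3′ UTR of UNC119B had 34.5 and 33.5 counts in EPN24-Cas13d against 0 and 0 in EPN24, at least 6.06-fold higher. MIR4658, in coding and 3′ UTR sequence of TRAPPC14, had 30 and 30 counts against 0.5 and 0, at least 5.35-fold higher. The 92-nt TRIM28 intron MIR6807 had 24.5 and 20.5 counts against 0 and 0, at least 4.01-fold higher, while TRIM28, a corepressor of zinc-finger repressors, differed by a log2 fold change of 4.86. It held 0.273% and 0.233% as many counts as TRIM28 in EPN24-Cas13d, a far smaller part than the exonic loci above. MIR6852 in TLN1, the talin gene, had 19 and 22.5 counts against 0 and 0, at least 3.71-fold higher. A floor of 3 counts corresponds to 1.31 and 1.39 CPM in the EPN24 libraries and to 0.704 and 0.737 in the EPN24-Cas13d libraries.

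The other loci called higher had log2 fold changes from 1.59 to 4.57, all beside a host called higher. They include MIR4800 in MXD4, MIR943 in NELFA and MIR4321 in AMH. At MIR4800 the locus had 9.85 and 13.1 CPM against 0.87 and 0.231, a log2 fold change of 4.57 beside 4.53 for the host. DGCR8, the partner of DROSHA in hairpin cutting, carries hairpins in its own mRNA. Its coding exon holds MIR1306, with 18 and 18.5 counts in EPN24-Cas13d against 1 and 3 in EPN24 and a log2 fold change of 2.22 beside 2.41 for DGCR8. Its 5′ UTR holds MIR3618, which was not tested and had 15 and 8.5 counts against 1 and 1. MIR198, in the 3′ UTR of FSTL1, differed by 3.24 and its host by 3.31.

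MIR6717 differed most from its host among tested loci with no group at 0 after rounding. It had 32.5 and 16 counts in EPN24-Cas13d against 0.5 and 1.5 in EPN24, a log2 fold change of 3.56, while NDRG2 differed by 0.98. In the other direction, MIR4315-1 had 20 and 20 counts against 0 and 10. It had 4.69 and 4.91 CPM in EPN24-Cas13d against 0 and 4.62 in EPN24, so the EPN24 libraries lay apart while the groups did not overlap. The log2 fold change of 1.07 was not called (adjusted p = 0.288, edgeR's quasi-likelihood test, Benjamini-Hochberg adjustment), while its host PLEKHM1 was higher by 3.11. MIR4315-2 is listed with the same mature sequence and had 6 and 4 counts against 0 and 0, so reads may be split between these copies.

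None of the 6 loci called lower with TMM scaling was called with ERCC scaling. MIR1282 (chr15:43793659-43793759, minus strand), opposite a coding exon of SERF2, had 2.81 and 3.32 CPM in EPN24-Cas13d against 15.9 and 12.9 in EPN24, a log2 fold change of -2.18 that became 1.15 with ERCC scaling. SERF2 differed by -1.45, and the call held without each library in turn. The locus ENSG00000277437 (chr21:8208844-8208904, plus strand) has no symbol in the authors' table and lies outside any protein-coding gene on the short arm of chromosome 21. It had 1.64 and 0.982 CPM against 10.0 and 7.39, a log2 fold change of -2.69 that became 0.61 with ERCC scaling. Its adjusted p of 0.00236 rose to 0.0582 without EPN24 replicate 1 (edgeR's quasi-likelihood test, Benjamini-Hochberg adjustment).

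PTMA encodes prothymosin alpha, and its 3′ UTR holds MIR1244-1 (chr2:231713314-231713398, plus strand). The locus had 1 and 1 counts in EPN24-Cas13d against 11 and 13 in EPN24, a CPM ratio of 0.0446 (exact 95% interval 0.00511 to 0.180) and a log2 fold change of -4.28. PTMA had 21.5 and 17.9 CPM against 464 and 491, a log2 fold change of -4.59, and the locus held between 1.03% and 1.37% as many counts as PTMA in all 4 libraries. MIR4444-1 (chr2:177212726-177212799, plus strand) in the 5′ UTR of HNRNPA3, an hnRNP gene, had 0.469 and 0.737 CPM against 6.53 and 8.31, a log2 fold change of -3.54 beside -3.86 for the host. With ERCC scaling these loci differed by -1.09 and -0.25. In edgeR's quasi-likelihood test the Benjamini-Hochberg adjusted p of MIR1244-1 rose from 6.82e-04 to 0.0689 without EPN24 replicate 1 and to 0.114 without EPN24 replicate 2. That of MIR4444-1 rose from 0.00114 to 0.0666 without EPN24 replicate 2, after the same adjustment by edgeR. Both have further annotated copies, so their counts are uncertain where a read matches several.

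MIR3655 (chr5:140647844-140647926, plus strand) lies in coding and 5′ UTR sequence of IK, a spliceosome-associated gene. It had 2 and 3 counts against 6.33 and 8.83, a log2 fold change of -2.41 (0.87 with ERCC scaling) beside -2.66 for IK. Its adjusted p of 0.0135 (edgeR's quasi-likelihood test, Benjamini-Hochberg adjustment) rose to 0.129 with the DESeq2 Wald test, to 0.179 with no filter, and to 0.225 and 0.426 without EPN24 replicate 1 and 2. MIR3194 (chr20:51452905-51452977, minus strand), in an intron of the transcription factor gene NFATC2, had 0 and 0 counts against 9 and 6. It was at least 4.64-fold lower in EPN24-Cas13d (adjusted p = 6.93e-04, edgeR's quasi-likelihood test, Benjamini-Hochberg adjustment), and this call was lost with ERCC scaling (edgeR adjusted p = 0.114) and without EPN24 replicate 1 (0.188) or 2 (0.117). NFATC2 differed by -1.21.

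Loci and hosts differed to the same side throughout the called set when all 4 libraries were used. The 93 hosted loci lie in 91 distinct hosts, all tested, of which 76 were higher, 12 lower and 3 not called. Among tested protein-coding genes 37.0% were higher and 42.9% lower. The hosts belong to loci chosen by summed counts, which a locus reaches more easily through EPN24-Cas13d, so these shares carry no test. The hosts had a median log2 fold change of 2.76, and of 6.10 with ERCC scaling. All 34 called loci with a host (29 higher and 5 lower) had a host called on the same side. Without EPN24-Cas13d replicate 1 this held for 32 of 34 and without EPN24-Cas13d replicate 2 for 31 of 32. For the 29 tested, hosted loci with no group at 0 after rounding, the difference between the locus's and the host's log2 fold change had a median of 0.05 and a range from -2.04 at MIR4315-1 to 2.58 at MIR6717, and 19 of the 29 lay within 1 of their host. A read that crosses the locus may also be counted for the host, since the overlap setting is not given, so the values of a pair may not be independent.

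**Figure D3:**
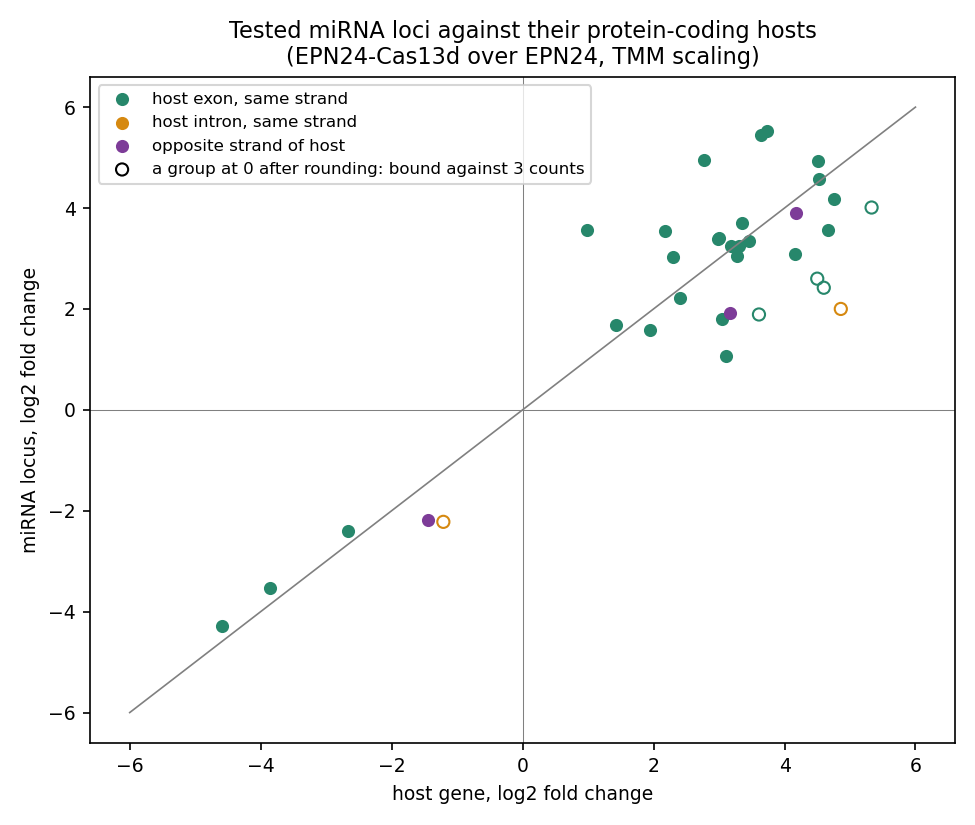
Log2 fold change (EPN24-Cas13d over EPN24, TMM scaling) of the 35 tested miRNA loci with a host, plotted against that of the host; colours give the position of the locus, open circles are bounds where a group was at 0 after rounding, and the grey diagonal marks equal change. Of the 29 filled points, 19 lie within 1 log2 unit of the host's value.

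Among the 66 untested loci the groups did not overlap with EPN24-Cas13d higher at 47, with EPN24 higher at 6, and overlapped at 13. Of all genes with at least 10 summed counts, 28.3% lay on the EPN24-Cas13d side and 57.2% on the EPN24 side. Those shares include genes with far more counts than these loci. Of the 45 hosted loci on the EPN24-Cas13d side, 40 had a host that was higher and 3 a host that was lower. Those 3 were singled out after their values were seen. MIR3064 had 5.5 and 6 counts against 1.5 and 0, and DDX5, an RNA helicase of the DROSHA complex, differed by -1.25. MIR3654 had 8 and 12.5 counts against 0 and 0 in CHCHD3 (-0.93), and MIR564 had 5 and 4.5 against 0 and 0.5 in KIF15 (-0.88).

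On the EPN24 side, MIR3917 in the 5′ UTR of STMN1 had 1 and 0 counts against 5 and 6.5, and MIR3652 in HSP90B1 had 1 and 0 against 6.5 and 3. Their hosts differed by -3.28 and -2.96. Several untested loci owed their place to 1 library. MIR326 and MIR3188 had 10 counts in EPN24 replicate 2 and 0 elsewhere, MIR185 had 10 there beside 2 in EPN24-Cas13d replicate 1, and MIR183 had 10 in EPN24 replicate 1 beside 2 in EPN24-Cas13d replicate 2. No direction can be read from these loci.

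By position, 56 of the 65 exonic loci were higher in EPN24-Cas13d without overlap, 6 were higher in EPN24 and 3 overlapped. The same counts were 11, 1 and 5 for the 17 intronic loci, 8, 2 and 1 for the 11 opposite loci, and 2, 3 and 4 for the 9 loci outside protein-coding genes. Among all genes with at least 10 summed counts, 28.3% were higher in EPN24-Cas13d without overlap and 57.2% higher in EPN24. Summed per class, exonic loci had 20.3 and 21.8 counts per 1000 ERCC counts in EPN24-Cas13d against 0.281 and 0.323 in EPN24, a 69.9-fold difference. Intronic loci differed 20.6-fold, opposite loci 17.4-fold and loci outside genes 2.75-fold on this scale. As a share of gene counts the ratios were 4.73, 1.39, 1.18 and 0.188, so the loci outside genes took a smaller share in EPN24-Cas13d.

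The counts summed over loci, relative to those summed over hosts, were higher in EPN24-Cas13d for exonic loci and lower for intronic loci. Exonic loci summed to 2.22 and 2.27 counts per 100 host counts in EPN24-Cas13d and to 1.51 and 2.01 in EPN24 (2.24 ± 0.0392 against 1.76 ± 0.352, SD, n = 2). Intronic loci summed to 0.346 and 0.386 in EPN24-Cas13d and to 1.55 and 1.98 in EPN24 (0.366 ± 0.0277 against 1.76 ± 0.301). Opposite loci had 1.35 and 1.54 against 5.59 and 4.67. The groups do not overlap in any of the 3 classes, and 2 libraries against 2 cannot reach a p below 0.333 in an exact permutation test. Without MIR3940 the exonic values were 2.0 and 2.06 against 1.47 and 1.99, so the groups nearly touched. The EPN24 values for intronic loci include the 10 counts of MIR185 and of MIR326 in a single library, and without these loci they were 1.6 and 0.924 against 0.347 and 0.394 in EPN24-Cas13d.

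Single loci did not all follow the sums of their class. The percentage that a locus held of its own host's counts was on average higher in EPN24-Cas13d at 41 exonic loci and lower at 24, and without overlap at 23 and 10. For the 17 intronic loci these counts were 8 and 9, and 8 and 3 without overlap. As a log2 ratio with 0.5 added to each count, which raises the ratio most where counts are few, 29 exonic loci were higher and 36 lower, and 3 and 14 intronic loci. The tally by locus therefore depended on how loci with few counts were treated. Per nucleotide of locus and of host exon, the median exonic locus was 1.74 times as dense as its host in EPN24-Cas13d (53 of 65 denser) and 1.48 times in EPN24 (44 of 65 denser). A read longer than a locus may count for it by partial overlap, and the host length joins the exons of all transcripts. Both can raise this ratio, so a value above 1 cannot be read as enrichment of the hairpin.

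**Figure D4:**
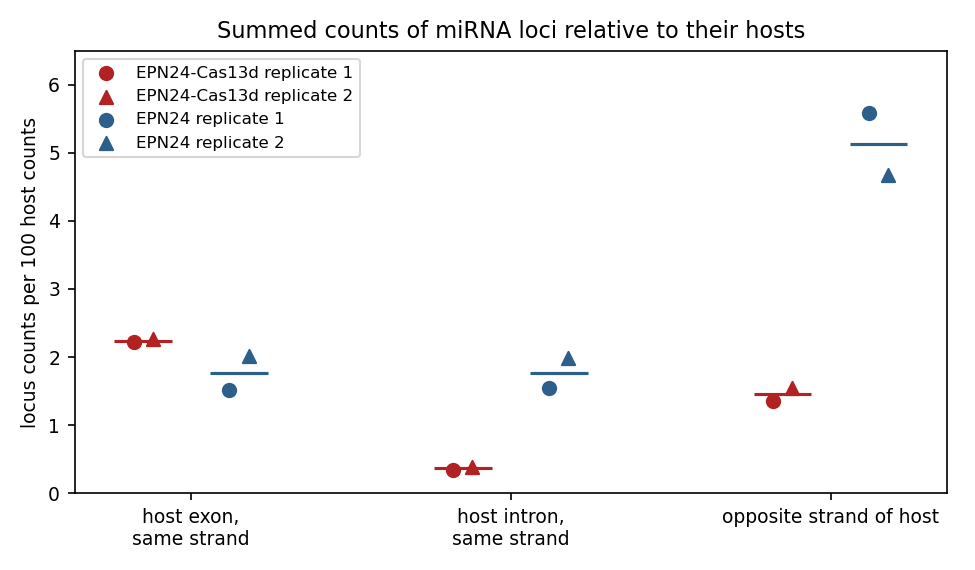
Counts summed over the miRNA loci of a class per 100 counts summed over their hosts in each library, by position of the locus; points are libraries and lines are group means. The class sums of EPN24-Cas13d lie above those of EPN24 for exonic loci (mean 2.24 against 1.76) and below them for intronic loci (0.366 against 1.76).

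All 102 loci together made up 0.0413% and 0.0431% of gene counts in EPN24-Cas13d against 0.0139% and 0.0151% in EPN24, a ratio of 2.91. Per 1000 ERCC counts they had 23.5 and 25.5 counts against 0.572 and 0.571, a 42.9-fold difference. The difference depended on the count minimum. All 926 miRNA rows took 0.0478% ± 0.00114 of gene counts in EPN24-Cas13d and 0.0516% ± 0.00468 in EPN24 (SD, n = 2), a ratio of 0.927, and the rows under 10 summed counts 0.00561% against 0.0371%. Relative to protein-coding counts alone, the 102 loci had 0.045 per 100 in EPN24-Cas13d and 0.0354 in EPN24, a ratio of 1.27.

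Those loci of well-known miRNA families that could be examined were nearly empty. Of 21 such loci typed miRNA in the table, only MIR183 reached 10 summed counts. Other listed loci, MIR21, MIR10A and MIR34A among them, were not among the typed rows, so nothing is said of them. The largest of the rest was MIR196B with 6.01, and the median was 1. The 21 loci summed to 4.7 and 3.7 counts in EPN24-Cas13d against 29.2 and 13.0 in EPN24, or 0.0484 against 0.0457 per 1000 ERCC counts on average. Relative to library size these sums were 0.916 and 0.755 per 1000000 gene counts in EPN24-Cas13d against 15.9 and 6.83 in EPN24. The EPN24 libraries were thus higher on this scale, without overlap, as were 57.2% of all genes with at least 10 summed counts. On the ERCC scale the EPN24 values, 0.0655 and 0.0259, lay on either side of those of EPN24-Cas13d, 0.0521 and 0.0447. Much of the EPN24 sums came from loci with counts in only 1 EPN24 library, such as MIR183 with 10 in replicate 1 and MIR96 with 6 in replicate 2.

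The primary transcripts of many such miRNAs are long non-coding RNAs named as host genes. Of 77 such genes 42 were tested, and 3 were higher, 35 lower and 4 not called, where 32.6% and 48.2% of all tested genes were higher and lower. Of the 35, at least 33 passed the filter on low counts only through EPN24 and had to differ. The median log2 fold change of the 42 was -3.48 and became -0.16 with ERCC scaling. MIR100HG, the primary transcript of a cluster that includes miR-100, had 0.938 and 0 CPM in EPN24-Cas13d against 30.5 and 26.8 in EPN24. Those higher were MIR600HG (40.6 and 39.5 CPM against 8.70 and 5.54), MIR1915HG and MIR762HG. The locus MIR1915, which shares its name with MIR1915HG, had 0 and 4 counts against 4 and 2.

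The 24 genes of the miRNA pathway list were all tested, with 12 higher, 11 lower and 1 not called, beside 32.6% higher and 48.2% lower among all tested genes. Their median log2 fold change was 0.26 (3.61 with ERCC scaling). Among those higher were ADAR, which edits double-stranded RNA (3.76), the Argonaute gene AGO2 (3.49), the hairpin exporter XPO5 (3.34), the Dicer partner TARBP2 (2.7) and DGCR8 (2.41). AGO2 had 577 and 514 CPM against 55.7 and 41.1. Among those lower were LIN28B, which blocks let-7 maturation (-3.48), the terminal uridylyl transferase TUT4 (-3.41), DICER1 (-1.17) and DROSHA (-0.54). Of the 11 lower, 4 passed the filter on low counts only through EPN24 and had to differ, LIN28B and TUT4 among them. With ERCC scaling DICER1 and DROSHA turned to 2.17 and 2.80, and LIN28B and TUT4 were at -0.15 and -0.09. These are levels of the messages in the supernatant, of which KHSRP, DGCR8 and DDX5 are also hosts of members.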

How the data were processed

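Per the submitters' processing notes, the pipeline used STAR 2.7.10a, Trim Galore 0.6.7 and FastQC 0.11.9, then featureCounts 2.0.1 and DESeq2 1.36.0, on hg38/GRCh38. The authors deposited expected counts per gene, which carry fractions, with strand, overlap and multi-mapping settings not given in the sources used here. Their second deposited table gives log2 fold changes with p-values, a mean normalized count (signal), a Wald statistic (score) and gene types. The deposited length of each gene is in bp. From 61640 rows, 5 pieces of a broken row were left out, leaving 61543 genes and 92 ERCC transcripts. The miRNA loci and lists were chosen with earlier results of these data known.

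Rounded counts were tested using edgeR 4.0.16 under R 4.3.3 (robust quasi-likelihood test, filterByExpr, TMM without ERCC rows, Benjamini-Hochberg over 20476 genes, threshold 0.05). The approximate SE is the log2 fold change's size over the square root of F. CPM carry the TMM scaling, apart from the filter's CPM, which are relative to total gene counts. Named loci are the 10 with the most counts, and, among called loci without overlap, the 6 highest and the 6 lowest log2 fold changes; others were chosen by their host or role. All 926 miRNA rows have the same coordinates in GENCODE v29. Replicates differed beyond counting noise, by chi-square over degrees of freedom: 2.47 in EPN24-Cas13d and 3.56 in EPN24. Alternatives were other scalings, filters, the DESeq2 1.42.0 Wald test, a replicate block, halved counts and each library left out.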

Additional observations from a re-analysis of the deposited data

How the results depend on the processing

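The direction and the call at the named loci held in 203 of 223 combinations of locus and alternative in which the locus was tested. Of the 20 named loci, 9 were tested with the filter of 10 counts and 10 CPM, and 14 with counts halved. With ERCC scaling the loci called lower fell from 6 to 0, the median log2 fold change of tested loci became 6.63, and the log2 fold change turned to 0.61 at ENSG00000277437, 0.87 at MIR3655 and 1.15 at MIR1282. A filter of 10 counts and 10 CPM in both libraries of a group left 8 higher and 1 lower of 9 tested loci. Counts halved gave 16 higher and 3 lower of 19 tested. With no filter 43 of 102 were higher and 9 lower, where 14.9% of all genes were higher and 22.5% lower. The DESeq2 Wald test gave 21 and 5 of 36, and a minimum of 30 summed counts 29 and 3 of 33. Shares over all genes are not given here for the other filters or the Wald test. Leaving out each library in turn gave 25 to 29 higher, 2 to 6 lower and a median of 3.12 to 3.56. Called loci on the side of their host were 32 of 34 without EPN24-Cas13d replicate 1, 31 of 32 without EPN24-Cas13d replicate 2, and 27 of 27 without either EPN24 replicate. The group left with 1 library is there assumed to vary like the other. The lowest count, 2 lower, came without EPN24 replicate 1 and without EPN24 replicate 2.

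The share ratio of 2.91 was 0.927 over all miRNA rows, 4.47 with at least 30 summed counts, 1.27 relative to protein-coding counts, 2.45 without MIR3940, and 2.80 to 3.04 with each library left out. The 42.9-fold difference per ERCC count was 13.6-fold over all miRNA rows and 41.2 to 44.7 with each library left out. The log2 difference in locus counts relative to hosts was -0.28 over all hosted loci, -0.44 without MIR3940 and -0.42 to -0.15 with each library left out. The difference in summed locus counts per 100 host counts was 0.48 for exonic loci and 0.3 without MIR3940, and -1.4 for intronic loci and -0.889 without MIR185 and MIR326. The alternatives without named loci and the range of the log2 difference were chosen after seeing the data. With a replicate block 25 loci were higher and 5 lower, and MIR3655 was lost (adjusted p = 0.164 by edgeR). Replicates of the same number share only that number: their deviations from the group means had a correlation of -0.00408 over 20476 genes. Where no cause is named, the cause was not tested.

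Few reads limit most loci: 66 of 102 could not be tested, and 16 had no count in either EPN24 library and 5 none in either EPN24-Cas13d library. A floor of 3 counts, 1.31 and 1.39 CPM in the EPN24 libraries, exceeds the level of many loci there.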
